A study of Mus musculus with 7 samples.

Results

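Cluster 4 of a 16-cluster map of the mouse kidney is described here, with the working name of loop of Henle cells. Its members are all cells to which the authors gave cluster number 4, in every library, and they numbered 1581 of 43745 cells (3.61%). The cells came from dissociated whole kidneys of 7 healthy mice (C57BL/6, 4 to 8 weeks old) and were profiled by droplet-based sequencing of transcript 3′ ends, where unique molecular identifiers (UMIs) count the captured molecules. Of the mice, 4 were wild type (WT), and 3 carried the mTmG membrane reporter, whose red fluorescence turns green where Cre recombinase is active, with a different Cre driver each. These were Cdh16CremTmG (a driver of tubule epithelium), SclCremTmG (a driver of endothelial and blood lineages) and Nphs2CremTmG (a driver of podocytes). Every group shares the strain and the tissue, no treatment is named, and the labels give no sex.

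The number at the end of a cell's barcode gave its library, of which there were 7. The labels number the mice too, but no source used here states that the barcode numbers follow that order, so genotypes were not compared and all 7 libraries form a single group of kidneys. Cluster 4 had 216, 164, 143, 236, 358, 296 and 168 cells in libraries 1 to 7, and 3916339 UMIs in all, between 400582 and 1051716 per library. Its cells held 707 to 9399 UMIs, with a median of 2182, and a median of 915 genes. Of these cells, 80 carried a barcode sequence that also occurs in another library, in 2 of them within cluster 4. In levels by library, CPM stands for the UMI count scaled to the total of that cluster in that library (counts per 1000000 UMIs), and values are means ± SD over the libraries.

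The loop of Henle is the hairpin part of the nephron that dips into the medulla. Its thick ascending limb takes up salt without water, through the apical cotransporter of sodium, potassium and chloride (Slc12a1, the target of loop diuretics), and so drives the concentration of urine. Calcium and magnesium pass between its cells through claudin channels, the limb secretes uromodulin (Umod, the most abundant protein of normal urine), and a plaque of its cells at the glomerulus, the macula densa, senses luminal salt. The thin limbs of the loop, by contrast, lack Slc12a1 and are permeable to water or to salt without active transport.

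The 4 genes fixed as markers of this class, Slc12a1, Umod and the claudins Cldn16 and Cldn19, were each at their highest mean in cluster 4 among the 16 clusters. Slc12a1 stood at 4576, 5135, 4089, 4293, 3475, 3890 and 4888 CPM in libraries 1 to 7 of cluster 4. In cluster 5, whose leading markers are those of the distal convoluted tubule, the next segment, the 7 values lay between 14.7 and 36.4 CPM, and in the proximal tubule-like cluster 3 between 4.15 and 13.6 CPM. The libraries of the 3 clusters did not overlap, and cluster 4 held 89.2% of all Slc12a1 UMIs in the matrix. Umod stood at 8498 CPM ± 1837 (SD, n = 7) in cluster 4, 1822 ± 1159 in cluster 5 and 54.6 ± 24.5 in cluster 3. Cldn16 was at 134.6 CPM ± 33.3 and Cldn19 at 173.5 CPM ± 30.6 in cluster 4, against means of 0.774 and 2.18 CPM in cluster 5. At least 1 marker UMI was found in 98.7% of the cells and UMIs of at least 2 markers in 89.4%.

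**Figure D1:**
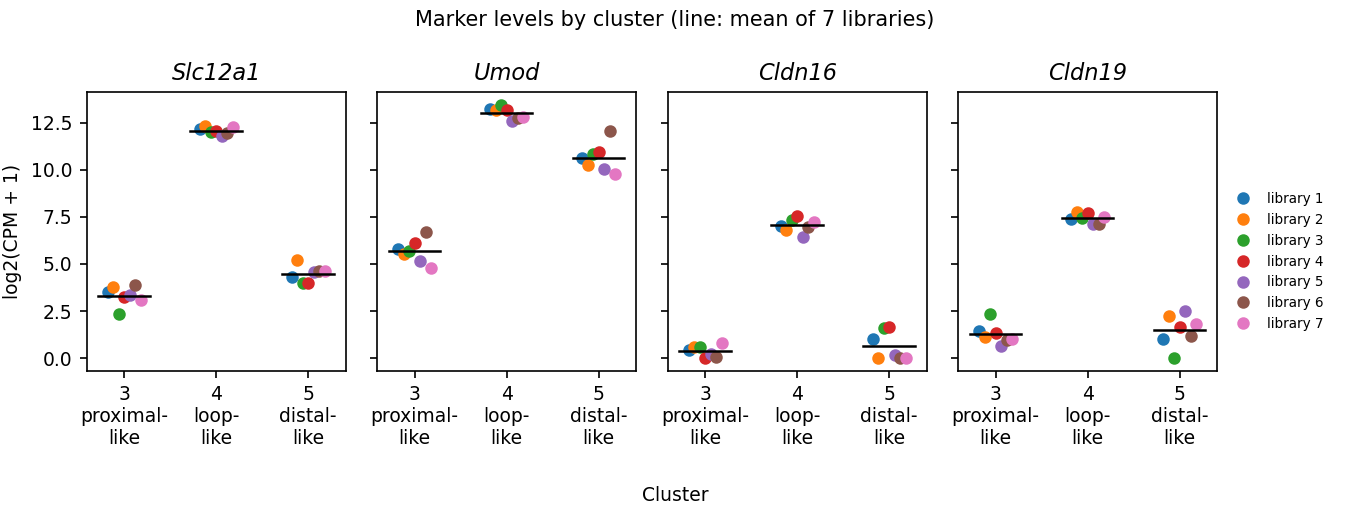
Levels of the 4 marker genes as log2(CPM + 1), with 1 point per library (colours) and a line at the mean of the plotted values, in clusters 3, 4 and 5. The 7 libraries of cluster 4 lie above those of both other clusters for each gene, and Umod in cluster 5, at 861 to 4283 CPM, lies closest to them.

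The naming rule given below asks, among other things, for an average log2 CPM of at least 5. For the 3 genes with the largest folds over the other clusters under this rule, the RefSeq bases just upstream of the start are shown. They are the 250 bases that end at the base before the start, 5′ to 3′ on the gene's strand, on build GRCm38.p6. Slc12a1 is on the plus strand (chr2:125152350-125152599), Umod on the minus strand (chr7:119479263-119479512) and Egf, which encodes the epidermal growth factor precursor, on the minus strand (chr3:129755323-129755572). Capitals mark the single match to 3 searched motifs on either strand. These were GTTAAT (a core of the site of HNF1 factors), AAGGTCA (a core of the site of oestrogen-related receptors) and TATAAA (the TATA box), which do not overlap each other.
Slc12a1: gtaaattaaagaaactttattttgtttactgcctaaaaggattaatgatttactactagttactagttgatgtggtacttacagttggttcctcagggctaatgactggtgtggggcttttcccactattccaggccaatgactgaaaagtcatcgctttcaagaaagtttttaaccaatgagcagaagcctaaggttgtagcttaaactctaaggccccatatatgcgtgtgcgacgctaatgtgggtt
Umod: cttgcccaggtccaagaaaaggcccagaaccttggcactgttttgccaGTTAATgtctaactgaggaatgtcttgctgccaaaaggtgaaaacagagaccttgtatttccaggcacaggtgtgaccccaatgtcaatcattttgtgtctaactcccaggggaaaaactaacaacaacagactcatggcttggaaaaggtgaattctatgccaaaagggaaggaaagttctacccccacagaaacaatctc
Egf: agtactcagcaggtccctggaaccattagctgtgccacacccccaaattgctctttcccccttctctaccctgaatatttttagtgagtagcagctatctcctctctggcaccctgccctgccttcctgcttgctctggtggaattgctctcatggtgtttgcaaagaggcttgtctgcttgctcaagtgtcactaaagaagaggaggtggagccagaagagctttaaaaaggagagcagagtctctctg
GTTAAT stood 202 bases before the Umod start, and 6.43% of the 32851 upstream windows in the RefSeq table hold it on either strand. AAGGTCA is held by 4.08% of the windows and TATAAA by 12.4%, and neither is among the letters of these 3. GC content was 39.6% for Slc12a1, 45.2% for Umod and 50.4% for Egf, with a median of 52.4% over all windows.

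A UMI of Slc12a1 was found in 94.6% of cluster 4 cells (92.6 to 96.3% over the libraries), 2.28% of cluster 3 cells and 3.02% of cluster 5 cells. The median depths were 2182, 2281 and 2438 UMIs. With each cell thinned to 1000 UMIs, which left out 92 shallower cells of cluster 4, 1607 of cluster 3 and 473 of cluster 5, the shares were 90.1%, 1.09% and 1.76%. Umod UMIs were far more widespread, in 89.9% of cluster 4 cells, 64.3% of cluster 5 cells and 10.98% of cluster 3 cells. Cluster 4 held 39.4% of all Umod UMIs. The number of Umod UMIs per Slc12a1 UMI was 1.44 to 2.73 over the libraries of cluster 4 and 32.8 to 184 over those of cluster 5. It was 3.5 to 12.4 in cluster 3 and 4.76 to 27.5 in cluster 7, so all 3 lay above cluster 4 without overlap, cluster 5 the furthest. The source of the Umod RNA outside cluster 4 was not tested. Library 6, with 4283 CPM, had the most Umod in cluster 5.

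Markers of non-tubular cell types were few. The summed level of 5 podocyte markers was 0 to 2.496 CPM over the libraries, of 7 endothelial markers 4.98 to 17.4 CPM, of 6 macrophage markers 6.66 to 17.1 CPM and of 8 lymphocyte markers 0 to 11.99 CPM. The 2 neutrophil markers, S100a8 and S100a9, summed to 0 to 5.14 CPM in 6 libraries and to 64.5 CPM in library 7. Markers of other tubule segments were higher. Over the libraries, 6 distal convoluted tubule markers summed to 354 to 665 CPM (a mean of 9016 in cluster 5), 8 principal cell markers to 72.2 to 166 CPM (17719 in cluster 6) and 7 intercalated cell markers to 16.6 to 130 CPM (12378 in cluster 7). The 14 proximal markers lay in cluster 4 at 8.92 to 16.1% of their mean level in cluster 3 (median 11.2%), and their summed level was 6.12 to 24.1% of that of cluster 3 in the same library, lowest in library 3 and highest in library 6. Cluster 5 showed 8.04 to 26.3% and cluster 7, whose cells are intercalated-like, 3.03 to 14.9%. Whether this RNA is the cells' own was not tested. Some genes that lie near these shares are marked as such below, but the marks are not complete. Globin UMIs were nearly absent, with Hbb-bs at a mean of 3.22 CPM in cluster 4 against 182 in cluster 5 and 567 in cluster 3.

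None of the thin limb genes in the matrix had its highest mean in cluster 4. Of 9 thin limb genes 8 were in the matrix, summing to 102 to 163 CPM over the libraries of cluster 4, and 4 of them (Fst, Bst1, Cdh13 and Sptssb) had no UMI in the 1581 cells. Sptssb averaged 95.4 CPM, Fst 52.2 CPM and Cdh13 19.9 CPM in cluster 1, where each had its highest mean. Aqp1, the water channel of the descending thin limb and the proximal tubule, was at 27.1 CPM ± 14.2 in cluster 4. It was at 209 CPM in cluster 3, so its level in cluster 4 lay near the share of the proximal markers, and at 918 CPM in cluster 1. Cryab, a small heat shock protein, was at 74.1 CPM ± 21.3 in cluster 4 against 24.4 in cluster 5 and 12.7 in cluster 3. Higher means were seen in cluster 1, at 504 CPM, and cluster 2, at 776 CPM. Cryab was the only 1 of the 6 tested to be called higher than the other clusters, cluster 5 or cluster 3 in the test described below. The working name thus held by genes of the thick ascending limb, while of these thin limb genes none peaked in cluster 4.

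Sums of counts per library and cluster were compared in a single model of all 16 clusters (edgeR's quasi-likelihood test, called where the Benjamini-Hochberg adjusted p was under 0.05). Because the authors drew the clusters from these same cells, a call says that a difference exceeded the spread between libraries and is not independent evidence of the class. Of 7952 genes tested, cluster 4 was higher than the mean of the other clusters for 30.7% and lower for 7.61%. Against cluster 5 it was higher for 6.01% and lower for 6.75%, and against cluster 3 higher for 23.5% and lower for 23.1%. Without library 5, 384 genes in place of 605 were lower than the mean of the other clusters. The median log2 fold over all tested genes was 0.16, -0.05 and -0.01 in the 3 comparisons.

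Over the mean of the other clusters, the genes with the largest folds under the naming rule included Slc12a1, Umod, Egf, Ptger3, Ppp1r1b, Foxq1, Sostdc1, Ppp1r1a, Sfrp1, Wfdc15b, Slc2a4, Tfap2b, Slc5a3 and Kng2. Slc12a1 led with a log2 fold of 7.61 (SE 0.19, adjusted p = 4.03e-61), followed by Umod at 6.13 (SE 0.18) and Egf at 5.85 (SE 0.18). Among them are the BMP and Wnt antagonist Sostdc1, the Wnt antagonist Sfrp1, the kininogen Kng2 and the protease inhibitor homologue Wfdc15b. Under the same rule, the 8 genes with the largest negative folds were Tgfb1, Tmsb4x, Klf2, Ifitm3, S100a6, Crip1, Ier5 and B2m. Tmsb4x, a regulator of actin assembly that is abundant in blood and endothelial cells, stood at 127.5 CPM ± 52.5 in cluster 4 with a log2 fold of -4.33 (SE 0.25). B2m, the light chain of MHC class I, stood at 77.9 CPM ± 34.0, with a log2 fold of -3.25 (SE 0.22). All 7 libraries of cluster 4 were below 132 CPM for B2m.

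At the apical membrane, Slc12a1 exceeded cluster 5 by a log2 fold of 7.42 (SE 0.40, adjusted p = 2.19e-31) and cluster 3 by 8.70 (SE 0.42). The potassium channel that returns potassium to the lumen, Kcnj1 (ROMK), was present at 231 to 399 CPM in the libraries of cluster 4 and at 390 to 557 CPM in those of cluster 5. It was lower than in cluster 5 by a log2 fold of -0.82 (SE 0.21, adjusted p = 0.00294), with 1 library of cluster 4 reaching into the range of cluster 5, and the call was lost with DESeq2 (adjusted p = 0.111). The other apical genes on the list, the sodium-proton exchanger Slc9a3 and the large potassium channel Kcnma1, averaged 0.976 and 1.03 CPM and were not tested. Slc12a3, the thiazide-sensitive cotransporter that takes over salt uptake in the distal convoluted tubule, stood at 68.9 CPM ± 53.6 in cluster 4 against 3379 ± 412 in cluster 5, a log2 fold of -6.29 (SE 0.39).

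Genes of the basolateral exit of salt differed less often from cluster 5 than from the average cluster. Of 10 genes tested, 8 were called higher in cluster 4 than in the mean of the other clusters (30.7% of all genes). Against cluster 5 1 was higher and 2 were lower (6.01% and 6.75% of all genes). Against cluster 3 6 were higher and 2 lower (23.5% and 23.1% of all genes). Barttin (Bsnd), a subunit needed for chloride exit, stood at 108 CPM ± 27.2 in cluster 4 and 84.8 ± 23.2 in cluster 5, with overlapping ranges, and was not called. The sodium pump subunit Atp1b1, at 3164 CPM ± 335, was called higher than in cluster 3 (log2 fold 1.73, SE 0.24) and was not called against cluster 5. The basolateral potassium channel Kcnj10 was lower than in cluster 5, at 69.6 CPM ± 6.73 against 135.5 ± 12.9 (log2 fold -1.21, SE 0.21), and the 7 libraries of each did not overlap. The potassium-chloride cotransporter Slc12a7 was the other gene lower than in cluster 5 (log2 fold -0.76, SE 0.22), a call lost without library 7 (edgeR adjusted p = 0.0632).

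Claudins form the seal and the channels between the cells. Cluster 4 had the highest mean of 5 of the 11 claudin and junction genes in the matrix. Of the 8 that were tested 3 were higher and 2 lower than in cluster 5 (6.01% and 6.75% of all genes). Cldn10, a sodium-selective claudin of the limb, stood at 522, 565, 809, 788, 604, 736 and 378 CPM in libraries 1 to 7 of cluster 4 and between 15.5 and 54.8 CPM in cluster 5, a log2 fold of 4.21 (SE 0.22, adjusted p = 7.57e-33). Cldn16 and Cldn19, which together carry calcium and magnesium through the junction, exceeded cluster 5 by 8.05 (SE 0.36) and 5.45 (SE 0.27), with no overlap between libraries. Cldn14, a partner that blocks the Cldn16 channel, averaged 1.41 CPM. Cldn8 and Cldn4, claudins of the collecting duct and late distal tubule, were the 2 lower than in cluster 5, with Cldn8 at 80.8 CPM ± 18.8 against 197 ± 36.5. Single cells differed in which claudin was caught. Of the 1581 cells, 637 had UMIs of Cldn10 without Cldn16, 271 of Cldn16 without Cldn10, 74 of both and 599 of neither, and Cldn16 was found in 10.4% of cells with Cldn10 against 31.1% of cells without it.

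Genes of calcium and magnesium handling separated cluster 4 from cluster 5 in both directions. Of 12 tested genes, 3 were higher and 6 lower (6.01% and 6.75% of all genes). The calcium-sensing receptor Casr, which in the limb restrains salt and calcium uptake, stood at 57.3 CPM ± 19.97, with 29.96 CPM in library 1 as the lowest and 89.1 CPM in library 4 as the highest. Cluster 5 lay at 8.37 to 18.5 CPM, without overlap (log2 fold 1.79, SE 0.23). The parathyroid hormone receptor Pth1r was at 403 CPM ± 104 against 236 ± 91.9 (log2 fold 0.66, SE 0.21, adjusted p = 0.0221). Egf, whose cleaved form regulates magnesium uptake downstream, was the third, at 5806 CPM ± 1235 against 2633 ± 838 (log2 fold 1.03, SE 0.31, adjusted p = 0.0129), with all 7 libraries of cluster 4 above all 7 of cluster 5. The call of Egf was lost without library 1 (edgeR adjusted p = 0.0655), without library 2 (0.175) and with DESeq2 (0.160), and that of Pth1r with DESeq2 (0.103) and without library 1, 2, 3, 4 or 7 (edgeR adjusted p = 0.0584 to 0.0939), while Casr kept its call in each alternative that tested it. Lower in cluster 4 were the transcellular path genes of the distal tubule, the channels Trpm6 (log2 fold -5.47), Trpm7 (-2.65) and Trpv5 (-4.20), the magnesium regulator Cnnm2 (-3.38) and the calcium buffers Calb1 (-5.999) and S100g (-4.86). S100g ranged from 283 to 2488 CPM over the libraries of cluster 4, with a mean of 1213, against a mean of 25155 CPM in cluster 5.

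**Figure D2:**
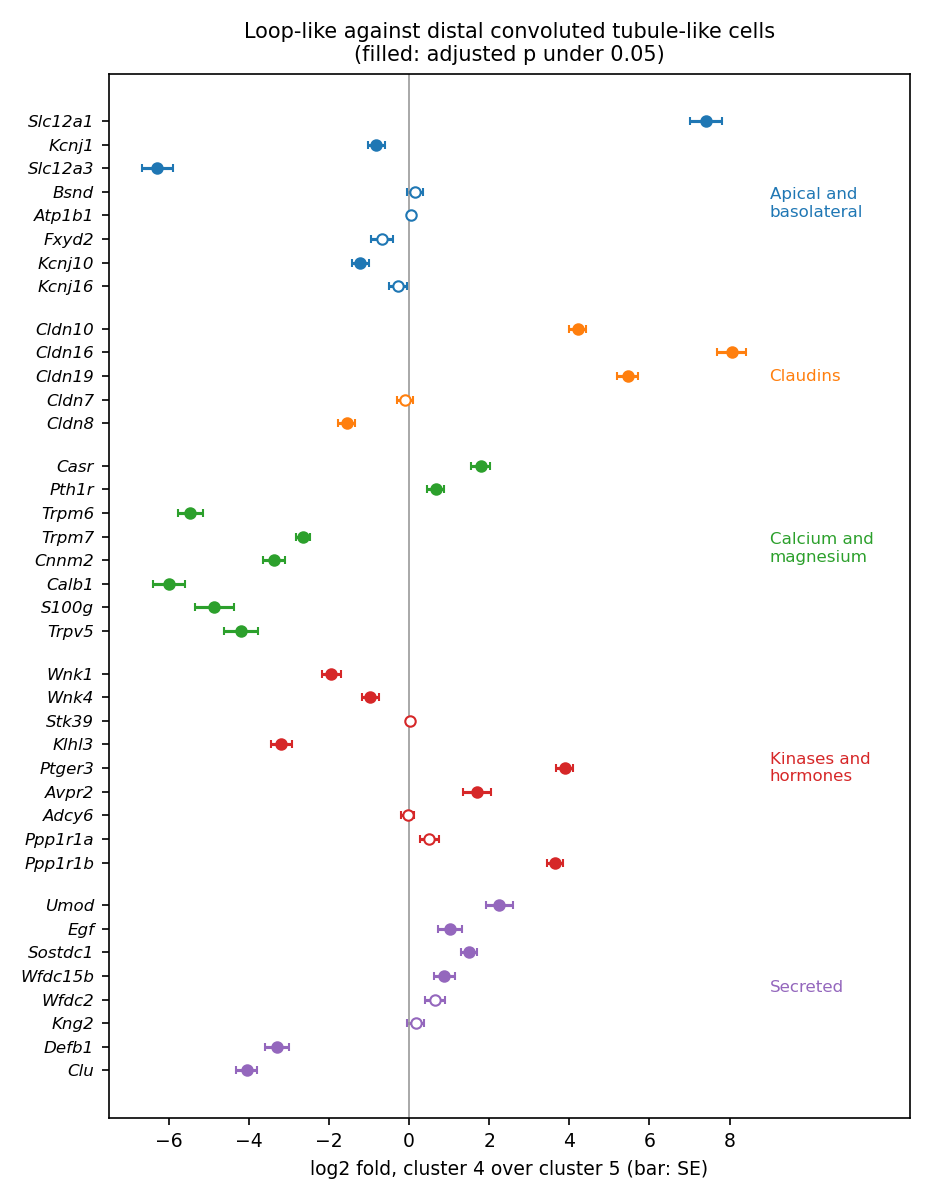
Log2 fold of cluster 4 over cluster 5 with its SE (horizontal bars) for transport, claudin, divalent cation, regulatory and secreted genes, filled where adjusted p is under 0.05. Slc12a1 (7.42) and Slc12a3 (-6.29) lie far apart on opposite sides, Bsnd and the sodium pump subunit Atp1b1 lie near 0, and Atp1b1 and Stk39 have no bar, since no SE was computed for values this close to 0.

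Among 16 tested kinases, receptors and other regulators of salt transport, 13 were called higher than in the mean of the other clusters and none lower. The shares of all genes were 30.7% and 7.61%. Against cluster 5, 4 were higher and 4 lower (6.01% and 6.75% of all genes). The prostaglandin E2 receptor Ptger3, which counters vasopressin in this limb, stood at 155, 187, 274, 223, 153, 127 and 152 CPM in libraries 1 to 7 of cluster 4 and at 2.07 to 25.1 CPM in cluster 5 (log2 fold 3.88, SE 0.21). Ppp1r1b (DARPP-32), an inhibitor of protein phosphatase 1 that is known from dopamine-sensing neurons, stood at 188 to 267 CPM and in cluster 5 at 6.28 to 26.8 CPM (log2 fold 3.65, SE 0.20). Neither gene's libraries overlapped between the clusters. Its relative Ppp1r1a was abundant in both, at 2236 CPM ± 351 and 1333 ± 193, and was not called against cluster 5. The vasopressin receptor Avpr2 stood at 11.6 CPM ± 3.25 in cluster 4 and 2.43 ± 2.12 in cluster 5 (log2 fold 1.70, SE 0.36), and at 251 CPM in the principal-like cluster 6. The fourth gene above cluster 5 was the glucocorticoid receptor Nr3c1 (log2 fold 1.01, SE 0.19). The kinases that switch on the salt cotransporters, Wnk1 and Wnk4, were lower than in cluster 5, with Wnk1 at 825 CPM ± 139 against 2633 ± 268 (log2 fold -1.94, SE 0.23) and Wnk4 at 260 ± 56.2 against 432 ± 56.5 (log2 fold -0.97, SE 0.21). Klhl3, the adaptor that sends these kinases to degradation, was lower by a log2 fold of -3.19 (SE 0.26), as was the scaffold Cab39l (-0.87, SE 0.21). Stk39 (SPAK), the kinase that acts on the cotransporters themselves, stood at 72.2 CPM ± 18.3 and 59.5 ± 7.98 and was not called. Reads at Wnk1 were not separated by isoform, so the long and the kidney-specific form cannot be told apart.

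A list of genes that cause inherited salt wasting or magnesium loss when mutated had 13 tested members. Of these, 12 were higher than in the mean of the other clusters and none lower, against backgrounds of 30.7% and 7.61%. The list is a selection that leaves out Slc12a3, Kcnj10 and Trpm6, each called lower than in cluster 5. Cluster 4 had the highest mean of 8 of the 13 in the matrix. Against cluster 5, 8 were higher and 2 lower (Kcnj1 and Cnnm2), beside 6.01% and 6.75% of all genes. Against cluster 3, 12 were higher, beside 23.5% of all genes. All but Umod, Egf and Rragd of this list are transport, claudin or receptor genes, most of them described above, so the count is not a separate result.

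Secreted products separated cluster 4 from cluster 5 in both directions. Of 13 tested genes, 6 were higher and 2 lower than in cluster 5 (6.01% and 6.75% of all genes). Without library 2, 4 were higher, and with DESeq2 3 were higher. Umod exceeded cluster 5 by a log2 fold of 2.25 (SE 0.33, adjusted p = 3.66e-08) and cluster 3 by 7.35 (SE 0.42). Sostdc1 stood at 1103 CPM ± 247 against 354 ± 107 in cluster 5 (log2 fold 1.499, SE 0.21), and Wfdc15b at 4001 ± 694 against 1936 ± 288 (log2 fold 0.88, SE 0.26), a call lost without library 2 (edgeR adjusted p = 0.0946) and with DESeq2 (0.114). Nccrp1, which encodes an F-box protein, stood at 81.8 to 197 CPM in 6 libraries of cluster 4, had no UMI in library 6 and averaged 0.992 CPM in cluster 5. The 2 lower genes were Defb1, a beta-defensin of the urinary tract, at 445 CPM ± 87.5 against 3460 ± 658 (log2 fold -3.30, SE 0.30), and clusterin (Clu), at 65.6 ± 19.99 against 834 ± 171 (log2 fold -4.06, SE 0.27). Lcn2, an iron-binding defence protein that rises in tubular injury, was called higher than in cluster 5 from a level of 2.17 CPM, near that of a few UMIs, and was not called without library 5 (edgeR adjusted p = 0.234).

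Of 29 listed transcription factors in the matrix, 6 had their highest mean in cluster 4. The share of UMIs in cluster 4 was computed for Irx1, Irx2 and Sim2 alone among factors. Irx1, Irx2 and Sim2, developmental factors of the Iroquois and single-minded families, were at 116 CPM ± 42.6, 82.8 ± 12.8 and 37.0 ± 5.55, and the next highest cluster for each was cluster 1, at 11.02, 7.18 and 3.68 CPM. Cluster 4 held 82.9% of all Irx1 UMIs, 80.3% of all Irx2 UMIs and 80.7% of all Sim2 UMIs. Irx1 stood at 102, 94.6, 189, 142, 89.4, 136 and 60.3 CPM in libraries 1 to 7 of cluster 4, and at 0 in 4 libraries and at most 0.510 CPM in the others of cluster 5. A UMI of Irx1 was seen in 18.2% of cluster 4 cells and in 0.0819% of cluster 5 cells. Foxq1, a forkhead factor, stood at 149 CPM ± 70.7 in cluster 4 and 3.41 ± 2.10 in cluster 5 (log2 fold 5.36, SE 0.45), and it was also present in cluster 7, at 96.6 CPM. Over the libraries of cluster 4 it ran from 63.7 CPM in library 6 to 259 CPM in library 3.

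Of 22 factors tested, 9 were higher and 6 lower than in cluster 5 (6.01% and 6.75% of all genes). Besides Irx1, Irx2 and Foxq1, the higher ones included Tfap2b, an AP-2 factor of the distal nephron, at 241 CPM ± 36.8 against 130 ± 27.8 (log2 fold 0.67, SE 0.18), Pou3f3, a factor needed for the loop to form, at 164 ± 36.5 against 88.2 ± 14.1 (log2 fold 0.64, SE 0.20), Ehf (2.66, SE 0.29), Emx2 (1.14, SE 0.25), Pax2 (0.99, SE 0.28) and Sim1 (0.84, SE 0.20). Among the lower ones, the largest folds were those of Emx1, Gata3, Lhx1 and Sall3. Emx1 stood at 6.21 CPM ± 4.60 in cluster 4 against 252 ± 27.6 in cluster 5 (log2 fold -5.51, SE 0.29), Lhx1 at 11.1 ± 11.8 against 261 ± 47.1 (-4.82, SE 0.28), Gata3 at 1.60 ± 2.09 against 62.6 ± 7.74 (-5.34, SE 0.43) and Sall3 at 7.24 ± 3.55 against 68.3 ± 20.3 (-3.68, SE 0.30). Hoxd8 (-1.06, SE 0.21) and Hnf4a (-0.80, SE 0.27) were the remaining 2. Calls were lost for Tfap2b without library 2 (edgeR adjusted p = 0.0653), for Pou3f3 without library 1 (0.0700) or 2 (0.0705), and for Hnf4a without any 1 library but 6 (0.0527 to 0.130), and all 3 were lost with DESeq2. Hnf4a, the factor of the proximal tubule, averaged 29.8 CPM in cluster 4 and 287.5 CPM in cluster 3, close to the share at which the proximal markers lay. Ppargc1a, a coactivator of mitochondrial genes, was at 308 CPM ± 40.1 and above cluster 3 by 1.87 (SE 0.19).

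**Figure D3:**
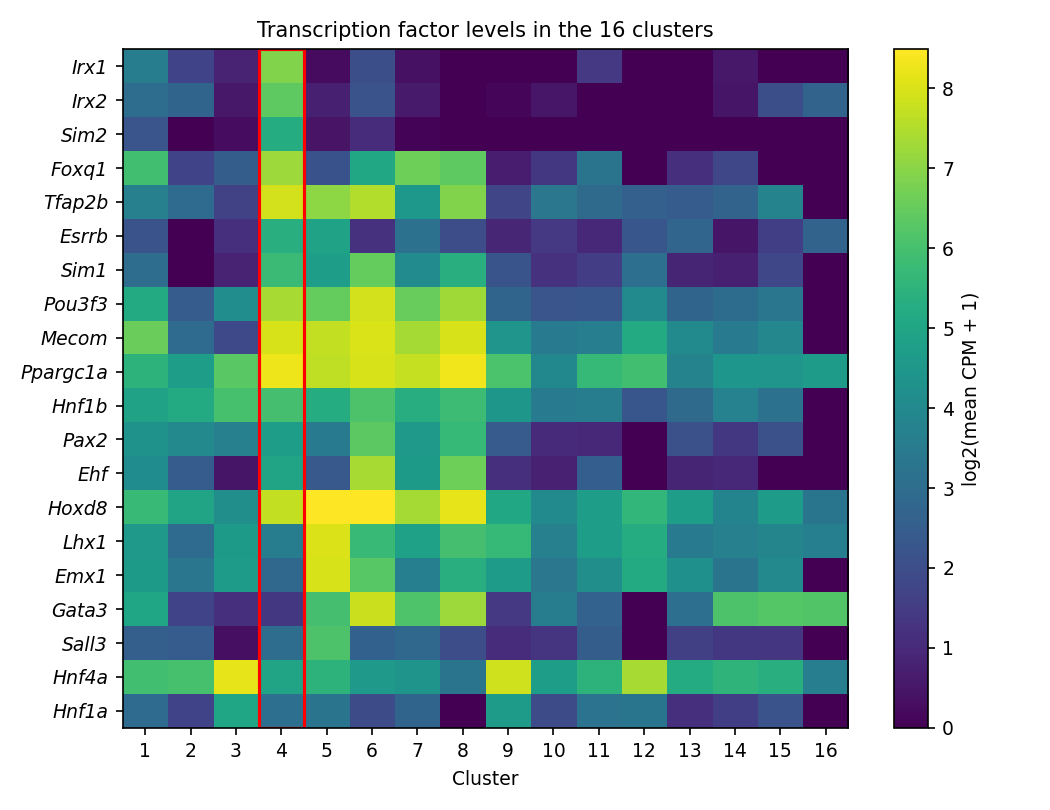
Mean level over libraries of 20 transcription factors in each of the 16 clusters, as log2(mean CPM + 1), with cluster 4 framed in red. Irx1, Irx2 and Sim2 are brightest in cluster 4, Lhx1, Emx1 and Sall3 in cluster 5, and Hnf4a in clusters 3 and 9.

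Genes of mitochondrial energy supply were higher in cluster 4 than in the average cluster and in part lower than in cluster 5. All 42 tested nuclear genes of oxidative phosphorylation and all 17 of the citrate cycle were higher than in the mean of the other clusters, where 30.7% of all genes were. Against cluster 5, none of the 42 was higher and 6 were lower (6.01% and 6.75% of all genes). The list median log2 fold was -0.29, beside -0.05 for all genes. Without library 7, 3 of the 42 were lower. Of the 13 mitochondrially encoded genes, 10 were lower than in cluster 5 and none higher, but only 4 to 6 were lower with any 1 library left out, and 4 with DESeq2. The median share of mitochondrial UMIs per cell was 22.7% ± 5.35 (SD, n = 7 libraries) in cluster 4, 33.3% ± 2.55 in cluster 5 and 18.6% ± 3.65 in cluster 3. It was lower in cluster 4 than in cluster 5 in 7 of 7 libraries, by 10.6 points on average, at the smallest 2-sided p the exact paired permutation test allows (0.0156, 0.0938 after adjustment over 6 comparisons). The difference from cluster 3 did not pass (exact permutation adjusted p = 0.3125). Median UMIs per cell differed from those of clusters 3 and 5 by less than their spread, by -8.93 ± 270 (SD of the 7 differences) and 170.5 ± 569, and lay below those of the principal-like cluster 6 in 6 of 6 libraries (exact permutation adjusted p = 0.0938).

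Fuel genes differed from the proximal tubule by pathway. Of 15 glycolysis genes, 8 were higher and 2 lower than in cluster 3 (23.5% and 23.1% of all genes). Hexokinase Hk1, which commits glucose to glycolysis, stood at 121 CPM ± 16.3 in cluster 4 against 2.36 ± 1.00 in cluster 3 (log2 fold 5.30, SE 0.18), and pyruvate kinase Pkm at 397.5 ± 78.6 against 11.7 ± 3.88 (4.84, SE 0.21). Ldhb, a lactate dehydrogenase of oxidative tissues, was higher (1.19, SE 0.22) and Ldha, its counterpart of glycolytic tissues, lower (-1.42, SE 0.17). All 5 gluconeogenesis genes were lower than in cluster 3, among them Pck1 at 126 CPM ± 118 against 984 ± 301 (log2 fold -3.62, SE 0.27), and these levels again lay near the shares of the proximal markers. Of 20 fatty acid oxidation genes, 9 were lower than in cluster 3, where 23.1% of all genes were, and 4 were higher (2 without library 2, 6 or 7), a share no larger than the 23.5% of all genes. The 9 included the peroxisomal enzymes Ehhadh (-2.90, SE 0.26) and Acaa1b (-3.04, SE 0.20), and the 4 included the trifunctional enzyme genes Hadha (0.91, SE 0.17) and Hadhb (1.03, SE 0.15). Creatine kinase Ckb, which buffers ATP, stood at 521 CPM ± 143 against 10.3 ± 2.81 (log2 fold 5.43, SE 0.27). The mitochondrial isocitrate dehydrogenase Idh2 was at its highest mean in cluster 4, at 480 CPM ± 42.0 against 160 ± 23.4 in cluster 3 (log2 fold 1.45, SE 0.18).

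Of 6 tested osmolyte genes, which balance the cell against the salt of the medulla, 3 were higher and 2 lower than in the mean of the other clusters. The inositol carrier Slc5a3 was highest in cluster 4, at 509 CPM ± 103 against 135 ± 26.3 in cluster 5 (log2 fold 1.67, SE 0.20) and 10.9 ± 5.47 in cluster 3, and its osmotic regulator Nfat5 was above cluster 5 by 0.51 (SE 0.17), a call lost without library 2, 4, 5, 6 or 7 (edgeR adjusted p = 0.0820 to 0.194). The taurine carrier Slc6a6 was below the mean of the other clusters (-1.66, SE 0.23), as was the sorbitol-forming enzyme Akr1b3 (-1.13, SE 0.27), whose call was lost with cells thinned to 1000 UMIs (log2 fold -0.68, edgeR adjusted p = 1), in libraries 1, 2, 5 and 7 alone (-0.42, edgeR adjusted p = 1) and in libraries 3, 4 and 6 alone (-0.93, edgeR adjusted p = 1). Of 12 tested acid and base genes, 4 were above cluster 5 and 3 below it (6.01% and 6.75% of all genes). Those above were the carbonic anhydrases Car4 (2.42, SE 0.23), Car15 (6.53, SE 0.43) and Car2 (1.76, SE 0.26) and the bicarbonate carrier Slc4a7 (2.25, SE 0.43).

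Of 17 immediate early genes, which rise within minutes of a stimulus including tissue dissociation, 1 was higher and 8 were lower than in the mean of the other clusters, against 11 higher and 2 lower than in cluster 3 and 4 higher and 1 lower than in cluster 5. Without library 5, 4 in place of 8 were lower than the mean of the other clusters, and the number above cluster 5 ran from 2 to 7 with each library left out. Their summed level was 283 CPM in library 7 and 520 to 848 CPM in the others. Of 13 injury genes, Havcr1 and Krt20 had no UMI in cluster 4. The list as a whole summed to 2067 to 3051 CPM over the libraries. Of its 10 tested genes, 3 were higher and none lower than in the average cluster (30.7% and 7.61% of all genes). Against cluster 3, 5 were higher and none lower (23.5% and 23.1% of all genes). Against cluster 5, 2 were higher and 2 lower (6.01% and 6.75% of all genes). Herpud1, a gene of the endoplasmic reticulum stress response, stood at 241 CPM ± 113 against 77.3 ± 43.0 in cluster 5 (log2 fold 1.41, SE 0.24). Of 15 endoplasmic reticulum folding genes, it alone was called higher than in cluster 5 and Pdia6 alone lower. These counts are close to the 6.01% and 6.75% of all genes. The call of Pdia6 was lost without library 1, 5, 6 or 7 (edgeR adjusted p = 0.0524 to 0.158).

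Within cluster 4, 90 cells (5.69%, and 2.78 to 8.10% over the libraries) held a UMI of Nos1, the neuronal nitric oxide synthase. It is a known gene of the macula densa. Outside cluster 4, 14 of 42164 cells (0.0332%) did. The 90 cells came from every library, with 6, 5, 8, 18, 29, 15 and 9 in libraries 1 to 7. Splitting cluster 4 by this gene was chosen after its values were seen, and cells that express Nos1 but gave no UMI of it fall on the other side, so the 2 sides are described with no test. Cells with a Nos1 UMI had a median of 2498 UMIs and 14.7% mitochondrial UMIs, against 2154 UMIs and 22.9% for the other 1491 cells.

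Slc12a1 in the Nos1-positive cells was at 4596 CPM of their pooled UMIs against 4152 CPM in the rest of the cluster, and was higher in 6 of 7 libraries. The secreted products differed. Umod was at 527 CPM against 8526, a ratio of 16.2, Egf at 367 against 5753, a ratio of 15.7, and Wfdc15b at 239 against 4035, a ratio of 16.9, and each was lower in 7 of 7 libraries. Ppp1r1b and Foxq1 had no UMI in the 90 cells, which with an upper limit of 3 counts is at least 18.4-fold and 11.8-fold lower than the 228 and 145 CPM of the rest. Cldn19 (20.6 against 177 CPM) and Cldn10 (297 against 655 CPM) were also lower in 7 of 7 libraries. Other macula densa genes were higher in 7 of 7 libraries, Pappa2 at 169 CPM against 5.44, a protease of insulin-like growth factor binding proteins, and Robo2, a guidance receptor, at 214 against 7.89. Ptgs2 (COX-2), which makes the prostaglandins that lead to renin release, was at 49.4 CPM from 12 UMIs against 0.817 CPM from 3 UMIs.

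The transcription factors also differed. Irx1 was at 502 CPM in the Nos1-positive cells against 87.1 in the rest, Irx2 at 395 against 61.5 and Tfap2b at 408 against 220, each higher in 7 of 7 libraries, while Sim2 and Esrrb had no UMI against 39.7 and 43.8 CPM. The genes with the largest differences in the same direction in every library included Aebp1 (758 against 77.9 CPM), Zfand5 (511 against 74.0 CPM), Id3 (309 against 45.7 CPM) and Pde10a (136 against 11.7 CPM) on the higher side, and Tmem52b (86.5 against 854 CPM), Fabp3 (37.1 against 397 CPM) and Lpl (86.5 against 624 CPM) on the lower side. Of 2541 genes whose levels on both sides sum to at least 100 CPM, 9.84% were higher and 8.82% lower in all 7 libraries, so agreement of all libraries alone was common.

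**Figure D4:**
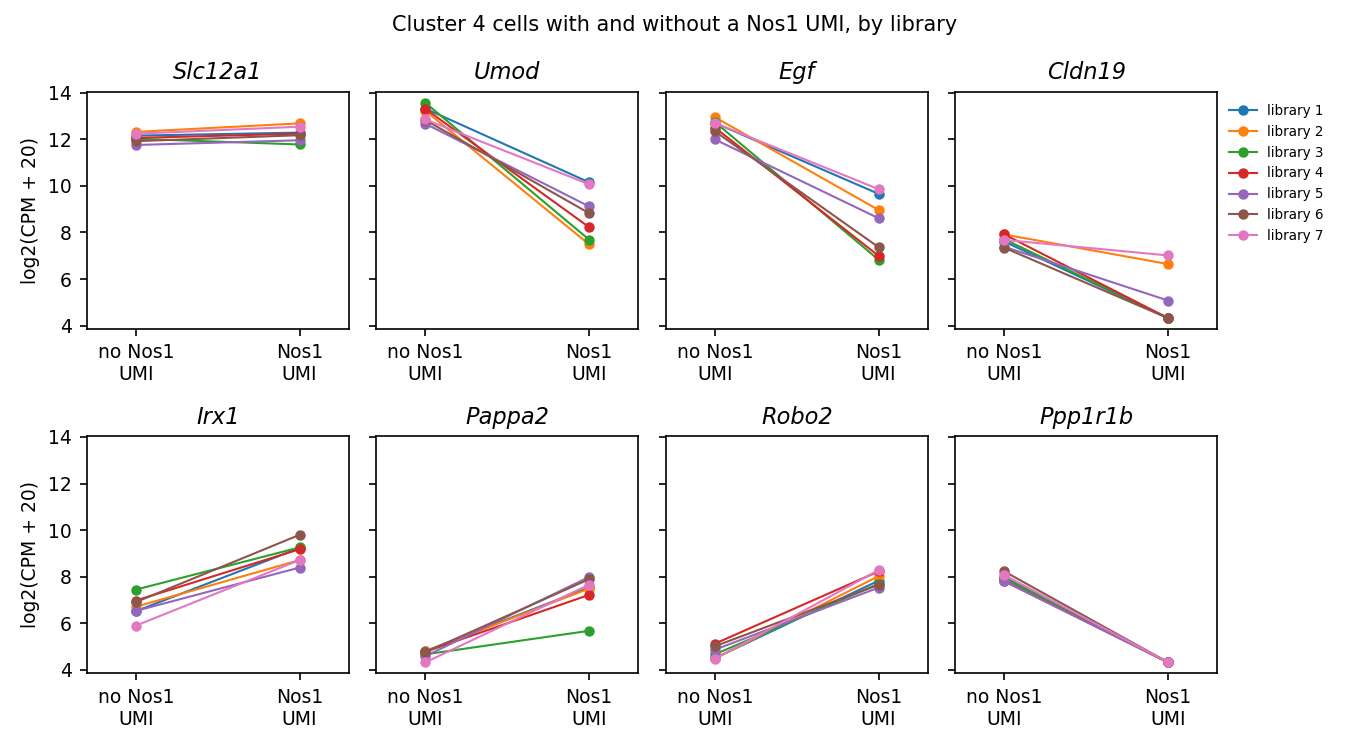
Levels of 8 genes as log2(CPM + 20) in cluster 4 cells without and with a Nos1 UMI, with lines joining the values of a library. Slc12a1 is about level, Umod, Egf and Ppp1r1b are lower with Nos1 in each of the 7 libraries, and Irx1, Pappa2 and Robo2 are higher. Points at the lower edge are counts of 0.

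The share of cluster 4 differed between libraries far beyond counting error. It was 7.34, 3.24, 10.3, 8.73, 2.53, 2.43 and 3.14% in libraries 1 to 7, and the 95% Wilson intervals of libraries 1, 3 and 4 (6.45 to 8.34%, 8.84 to 12.1% and 7.72 to 9.85%) did not meet those of the other 4, of which the highest bound was 3.77%. Libraries 1, 3 and 4 also held the fewest cells, 2943, 1383 and 2704 against 5060 to 14136. The number of cluster 4 cells varied less, from 143 to 358, than the number of all cells, from 1383 to 14136. Within tubule and collecting duct clusters alone (2 to 8) the shares were 2.65 to 13.4%. The share of cells in a suspension depends on dissociation and capture as well as on the tissue, and these cannot be told apart.

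**Figure D5:**
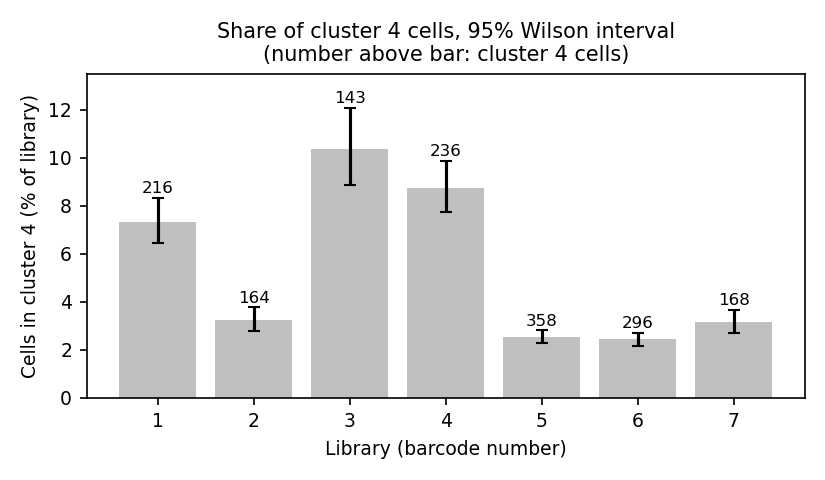
Share of cells in cluster 4 in each library (bars, from 0) with 95% Wilson intervals, which cover counting error only, and the number of cluster 4 cells above each bar. Libraries 1, 3 and 4, at 7.34 to 10.3%, stand above the others, at 2.43 to 3.24%.

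Genes differed in how much their level varied between libraries of cluster 4. The SD over 7 libraries was 578 CPM on a mean of 4335 for Slc12a1, 335 on 3164 for Atp1b1, 66.9 on 937 for Kng2 and 27.5 on 216 for Ppp1r1b, and it was wider for Umod (1837 on 8498), Cldn16 (33.3 on 134.6), Irx1 (42.6 on 116) and Foxq1 (70.7 on 149). The summed loop markers ran from 9791 to 15599 CPM. Of the genes averaging at least 100 CPM in cluster 4, the 8 most variable between libraries were Gm10260, Xist, Gm10709, Kap, Rpl29, Gm8797, Nccrp1 and Gm2000. Xist, which is transcribed from the inactive X chromosome, was at 1293 CPM in library 7 and at most 3.43 CPM elsewhere. Kap, an androgen-regulated gene of the proximal tubule, was at 16.6 CPM in library 7, 327 CPM in library 5 and 1380 to 3207 CPM in the others. In cluster 3 it was at 166 CPM in library 7 and 1628 CPM in library 5, against a mean of 16298 CPM over all its libraries. The mean of Kap in cluster 4 was 9.94% of that in cluster 3, within the range of the proximal markers. Whether this RNA is the cells' own was not tested. Rpl29 was at 26.8 to 105 CPM in libraries 3, 4 and 6 and 500.1 to 667 CPM in libraries 1, 2, 5 and 7. The pseudogenes Gm10709 and Gm10260 were the reverse, at 213 to 712 CPM in the first set and at most 12.48 CPM in the second.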

How the data were processed

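Per the submitters' processing notes, the processing used STAR, Cell Ranger 1.3 and build mm10, GRCm38.p4. A single matrix of raw UMI counts per gene and cell was deposited by the authors (16272 genes, 43745 cells, against 57979 cells stated in the labels), with their cluster number for each cell. How cells were filtered and clustered is not given in the sources used here.

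Each library's counts were added up within each cluster (5 cells or more) and tested by quasi-likelihood in edgeR 4.0.16, R 4.3.3 (TMM normalization, genes kept by filterByExpr on cluster, terms for cluster and library, Benjamini-Hochberg threshold 0.05) in 3 contrasts, which set cluster 4 against cluster 5, cluster 3 and the average of the 15 remaining clusters. SE is the log2 fold over the root of F. Medians per cell were compared with exact 2-sided paired permutation tests over libraries, adjusted over 6. Wilson intervals are at 95% and cover counting error only.

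The members, the 36 gene lists and the splits were chosen with earlier results of these data known. The naming rule takes list members, the 15 genes with the largest positive and 8 with the largest negative folds over the other clusters, 8 per direction against clusters 5 and 3 (adjusted p under 0.05, average log2 CPM of at least 5, the same sign in every library), and the 8 genes that vary most between libraries. Tmem52b, Fabp3, Lpl, Aebp1, Zfand5, Id3, Pde10a, Sfrp1, Mt1, Mt2, Fgf9, Slit2 and Tmem72 were added after their values were seen, as was the split by Nos1. Scrublet in scanpy 1.11.5 called 43 cells (0.0983%), so it did not work as a caller, and an alternative drops the top-scoring 6% of each library's cells instead. The other alternatives were the Wald test of DESeq2 1.42.0, edgeR with DESeq2's size factors, all genes without the filter, sums of 20 cells or more, cells thinned to 1000 UMIs, no library term and each library left out. Fits of libraries 3, 4 and 6 alone and of 1, 2, 5 and 7 alone were added after seeing the data. The test of cluster 4 against cluster 5 was also run on simulated data, with 200 of 7261 genes changed. Of the 2-fold changes 98% and of the 4-fold ones 100% were recovered, and 14 genes that had not been changed were called. The changed genes were drawn only from those with at least 200 expected counts in cluster 4, and no library effect was simulated. Recovery for genes with fewer counts, or with differences between libraries, was not tested. Gene positions are from GENCODE vM21 and upstream sequences from RefSeq, GRCm38.p6. Results of some genes on the lists are not reported here.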

Additional observations from a re-analysis of the deposited data

Results flagged for a closer look

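In 8 of 59 sets of 7 library values checked, the highest library stood apart from the others (by the 95% critical value of Dixon's test), where chance gives about 1 in 20. Xist in cluster 4 was at 1293 CPM in library 7 and at most 3.43 CPM in the others. The summed neutrophil markers of cluster 4 were at 64.5 CPM in library 7 and 0 to 5.14 CPM in the others. The globin gene Hbb-bs in cluster 4 was at 17.4 CPM in library 2 and 0 to 5.14 CPM in the others. The summed heat shock genes of cluster 4 were at 2774 CPM in library 5 and 1980 to 2247 CPM in the others. The summed lymphocyte markers of cluster 4 were at 11.99 CPM in library 4 and 0 to 3.80 CPM in the others. In the clusters used for comparison, Cldn19 in cluster 3 was at 4.15 CPM in library 3 (0.591 to 1.74 CPM in the others), Slc12a1 in cluster 5 at 36.4 CPM in library 2 (14.7 to 24.0 CPM) and Umod in cluster 5 at 4283 CPM in library 6 (861 to 1936 CPM).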

How the results depend on the processing

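Of 1444 values of 92 log2 folds under 16 alternatives, 1360 kept direction and call, 84 (in 20 folds) lost the call and none reversed. Counts of calls moved more. Against the mean of the other clusters, 2442 genes were higher and 605 lower. DESeq2's Wald test gave 1342 lower, which moved the higher share of calls from 80.1 to 64.4%, and the cause was not tested. Without library 5 there were 384 lower, and 384 to 621 over all libraries left out in turn. With no low-count filter 16272 genes were tested, and 4667 were higher than the other clusters, 789 higher than cluster 5 (478 in the main test), and 2897 higher and 3308 lower than cluster 3 (1872 and 1839). Thinning to 1000 UMIs left 4925 genes to test, with 1582 higher and 153 lower than the other clusters, 190 and 342 against cluster 5, and 997 and 974 against cluster 3. With at least 20 cells per sum 11876 genes were tested and 2788 were lower than cluster 3. Without the library block, 303 genes were higher and 315 lower than cluster 5, where 537 had been lower, and the cause was not tested. With fewer libraries, numbers 3, 4 and 6 alone gave 95 lower than the other clusters and 177 higher and 182 lower than cluster 5, and numbers 1, 2, 5 and 7 alone gave 396 lower than the other clusters and 291 lower than cluster 5. The difference in median UMIs per cell from cluster 3 ran from -96.1 to 47.8 with each library left out and turned positive without library 4 or 5, and no such difference was called. In the shallowest library of cluster 4 (400582 UMIs) a single UMI was worth 2.496 CPM, so levels below a few CPM rest on single counts.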

Other observations

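Metallothioneins, which bind zinc and copper, stood high in cluster 4. Mt1 was at 5033 CPM ± 1003 (SD, n = 7) in cluster 4, 2754 ± 821 in cluster 5 and 281 ± 211 in cluster 3, with a log2 fold over cluster 3 of 4.14 (SE 0.30) by edgeR's quasi-likelihood test. Mt2 was at 1447 CPM ± 384 in cluster 4, 629 ± 308 in cluster 5 and 46.6 ± 43.1 in cluster 3, and was called above cluster 5 (log2 fold 1.00, SE 0.28), a call lost with DESeq2 (adjusted p = 0.156). Both had their highest mean of the 16 clusters in cluster 4.

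Signalling genes outside the lists were also at their highest mean in cluster 4. The growth factor gene Fgf9 stood at 111 CPM ± 35.8 against 42.6 ± 15.2 in cluster 5 (log2 fold 1.19, SE 0.19), and Slit2, which encodes a ligand of the receptor gene Robo2, at 161 ± 37.6 against 66.1 ± 13.0 (log2 fold 1.04, SE 0.17). Tmem72, which encodes a membrane protein, stood at 264 CPM ± 44.9 in cluster 4, 221 ± 43.6 in cluster 5 and 3.34 ± 1.503 in cluster 3. Sfrp1 was at 573 to 886 CPM in libraries 1, 2, 5, 6 and 7 of cluster 4 and at 1494 and 1437 CPM in libraries 3 and 4, and these 2 libraries were also the highest in cluster 5, at 1430 and 1165 CPM.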
